A study of Homo sapiens with 32 samples.

Results

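MMACHC and CCDC163 start back to back on chromosome 1, and MMACHC encodes the enzyme that prepares vitamin B12 (cobalamin) for use inside the cell. Their shared promoter is described here together with the promoters of 8 comparator genes of intracellular cobalamin handling: MMADHC, MMAA, MMAB, MMUT, LMBRD1, ABCD4, MTR and MTRR. The members are windows of a chromatin accessibility table whose centre lies within 1000 bp of an annotated transcript start of these 10 genes (GENCODE release 44, hg38). They number 32 of the 212358 windows in the table, each 401 bp long. MMACHC and CCDC163 were chosen because their promoter showed the clearest loss in these same libraries, so every value from the treatment comparison at their 4 windows is a description without a test. The 8 comparator genes were chosen by pathway.

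The libraries came from HEK_CloneZD29, a clonal derivative of the embryonic kidney line HEK293T. Its ZNF143, a zinc finger transcription factor that binds many promoters, carries an inducible degron tag. All groups share this edited clone. In the dTAGV-1 group the cells received 50 nM dTAGV-1, a compound that recruits a ubiquitin ligase to the tag, for 30 min, and in the control group DMSO. Accessibility was measured by ATAC-seq, in which a transposase cuts open DNA. The labels list 32 libraries in 4 groups, and the counts cover replicates 9 to 16, with 8 control and 8 dTAGV-1 libraries. Replicates 1 to 8 enter only through a list of peak summits. ZNF143 protein was not measured in these files, and the design holds no untagged cells with dTAGV-1. All results rest on 1 clone. The labels do not state separate cultures, so p-values measure the spread between these libraries, which may be technical.

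Cobalamin reaches the lysosome bound to its carrier and leaves it through LMBRD1 and ABCD4. MMACHC then strips the upper ligand from the cobalt, and MMADHC passes the product on to the cytosol or the mitochondrion. In the cytosol methionine synthase (MTR), kept active by its reductase MTRR, uses methylcobalamin to turn homocysteine into methionine. In the mitochondrion MMAB makes adenosylcobalamin, MMAA oversees its loading, and methylmalonyl-CoA mutase (MMUT) uses it to make succinyl-CoA. Loss of MMACHC is known as the cause of cblC disease, and inherited defects of HCFC1, THAP11 or ZNF143 are known to give a cblC-like disorder.

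The sequence between the 2 start sites is shown because the window over it is the one the pair was chosen for. The MANE Select starts of CCDC163, on the minus strand, and MMACHC, on the plus strand, lie 227 bp apart at 45500073 and 45500300. The stretch chr1:45500080-45500299 (hg38, plus strand, intergenic) is printed 5′ to 3′, with capitals marking the best match to the long ZNF143 site, ACTACANNTCCCANNATGC.
MMACHC and CCDC163 divergent promoter: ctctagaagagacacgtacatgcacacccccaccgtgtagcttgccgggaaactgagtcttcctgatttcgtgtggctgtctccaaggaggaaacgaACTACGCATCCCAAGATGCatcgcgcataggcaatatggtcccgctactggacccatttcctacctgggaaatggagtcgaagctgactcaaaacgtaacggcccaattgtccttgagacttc

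The match spans chr1:45500177-45500195 and its middle lies 113 bp from the CCDC163 start and 114 bp from the MMACHC start, at the midpoint of the promoter. It differs from the pattern by A6G alone, with positions counted from 1 at the 5′ end of the 19-letter pattern, of which 15 letters are fixed. The pattern was not chosen blind. The shorter core, CCCANAATGC or CCCANCATGC, and the first block of the site were looked for in this window beforehand and were not there. The N gaps of the long pattern were then set with this sequence in view, so its match here supports nothing. The capitals show only where the promoter resembles the site.

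The window over this promoter, chr1:45499959-45500359, had its centre 141 bp from the MMACHC start and 80 bp from a CCDC163 start. In control replicates 9 to 16 it held 425, 468, 301, 66, 447, 340, 388 and 355 counts. In the dTAGV-1 replicates it held 86, 143, 61, 20, 113, 113, 126 and 70. As the libraries differ in depth, levels are given as log2 CPM, the log2 of counts scaled to library size (TMM factors, prior count 2).

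On that scale the control libraries ran from 4.64 to 5.51 with a median of 5.45, and the dTAGV-1 libraries from 2.52 to 3.68 with a median of 3.50. All 8 dTAGV-1 libraries were below all 8 control libraries. The means were 5.35 ± 0.29 and 3.39 ± 0.37 (SD, n = 8 each). The log2 fold change was -1.96 (SE 0.15, 95% interval -2.26 to -1.65), which leaves 25.7% of the control signal. Fewer cells with an open promoter and fewer cuts per cell cannot be told apart in bulk libraries.

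Some libraries stood apart before any comparison. The deposited counts per library ranged from 2275856 to 11418578 in control and from 3373219 to 13671039 in dTAGV-1. Control replicate 12 was the shallowest, and its signal was flatter, with 31.0% of counts in the top decile of windows. The same share was 37.8% in dTAGV-1 replicate 12, 40.3% in dTAGV-1 replicate 11 and 44.0% in control replicate 11, against 46.3% to 47.3% in the others. Without replicates 11 and 12 the MMACHC and CCDC163 window stood at 5.44 ± 0.072 log2 CPM with DMSO and at 3.48 ± 0.13 with dTAGV-1 (SD, n = 6 each). The log2 fold change was then -1.97 (SE 0.087), as large as with all libraries.

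**Figure D1:**
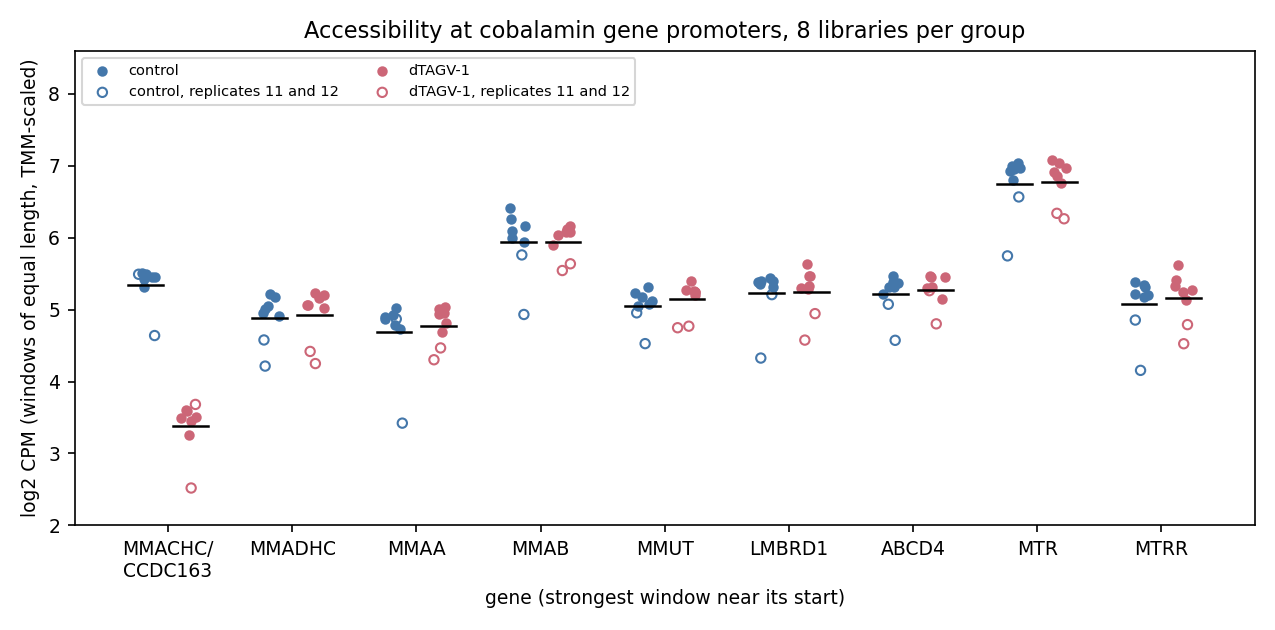
Accessibility in log2 CPM (vertical axis) of the strongest window near each gene's start (horizontal axis), 1 point per library, with control in blue, dTAGV-1 in red, replicates 11 and 12 as open circles and the group mean as a bar (n = 8). The groups are apart at MMACHC/CCDC163, with control at 4.64 or above and dTAGV-1 at 3.68 or below, and overlap at the other 8 genes.

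Read against the whole table, edgeR's quasi-likelihood test called 397 of the 185040 windows that passed the filter on low counts, or 0.215%, at an adjusted p below 0.05. Of these, 395 were lower in dTAGV-1, or 0.213% of those tested. In 132 windows, or 0.0713%, all 8 dTAGV-1 libraries were below all 8 control libraries. Among the 10 genes, 31 of the 32 windows were tested, and the remaining one, in an MTRR intron, had 137 counts in all. The MMACHC and CCDC163 promoter window was 1 of 31 called, which repeats how it was chosen.

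Its log2 fold change ranked 1 among 38119 promoter windows, those centred within 500 bp of any transcript start, and 5 among all tested windows. In level it passed from percentile 95.1 of these promoter windows in control to percentile 60.4 in dTAGV-1. Its level was therefore high among promoter windows in control cells and, after 30 min of dTAGV-1, still above their median. These windows include weaker ones beside the main window of a promoter, so the percentiles are not ranks among promoters. A residual signal was counted in every dTAGV-1 library.

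The other 3 windows of the pair had low signal. A window 210 bp from a CCDC163 start, in its untranslated region and 657 bp from an MMACHC start, ran from 1.85 to 2.79 log2 CPM in control and from 1.31 to 2.43 in dTAGV-1. Its log2 fold change was -0.21 (SE 0.18), and its groups overlapped. Beyond the promoter, 2 windows inside MMACHC, 806 and 346 bp from starts of shorter MMACHC transcripts, had log2 fold changes of -0.01 (SE 0.19) and 0.05 (SE 0.22). Of the 4 windows of the pair, the loss was seen in the one that covers both MANE Select starts. Smaller changes at the other 3, where signal was low, are not excluded.

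**Figure D2:**
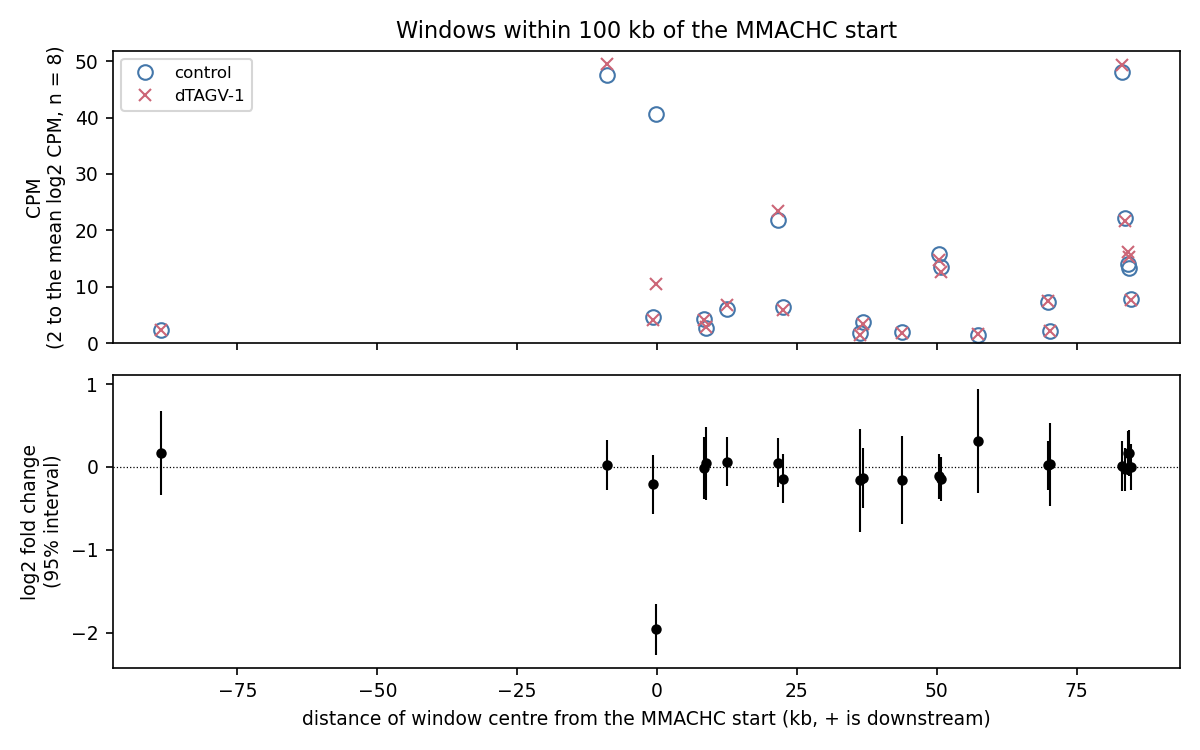
Windows within 100 kb of the MMACHC start, by distance of the window centre in kb (horizontal axis). The top panel gives accessibility as CPM for control (circles) and dTAGV-1 (crosses), computed as 2 to the mean log2 CPM of 8 libraries, and the bottom panel the log2 fold change with its 95% interval. The MMACHC and CCDC163 promoter window stands at -1.96, and the other 21 windows lie between -0.21 and 0.31.

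Neighbouring promoters were measured in the same fit. Within 100 kb of the MMACHC start, 21 other windows were tested and 0 were called, 0 also at an unadjusted p below 0.05. Of all 185040 tested windows, 397 were called and 5281 had an unadjusted p below 0.05. A count of 0 in 21 is thus near the background and is not a result about this locus. Their median log2 fold change was 0.011, near the 0.008 of all tested windows, and 9 were negative. TESK2, a kinase gene whose promoter window lies at -8.92 kb, ran from 4.72 to 5.82 log2 CPM in control and from 5.26 to 5.93 in dTAGV-1, with a log2 fold change of 0.02 (SE 0.15). PRDX1, encoding a peroxidase, whose transcription is known to silence the MMACHC promoter in some inherited forms of cblC disease, gave 0.05 (SE 0.15) at its main window.

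Farther promoters gave similar values. AKR1A1, an aldehyde reductase gene, gave -0.11 (SE 0.13). The window shared by TOE1, an RNA-trimming enzyme, and MUTYH, a DNA repair glycosylase, gave -0.07 (SE 0.14). HPDL had no window within 1000 bp of a start. The nearest other window called lower on this chromosome lay 1834072 bp away, at chr1:47334031-47334431, with a log2 fold change of -0.94 (SE 0.15, adjusted p = 0.000200, edgeR). No other tested window within 100 kb of the MMACHC start was called, which is near the background share given above.

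Each of the 8 comparator genes had an open promoter. For each, the main window is the tested one with the highest mean log2 CPM over the 16 libraries. All windows are equally long, but levels were not corrected for copy number or GC content. The order between genes is therefore one of signal, and how far it reflects openness was not tested. In control the order of mean log2 CPM was MTR at 6.75, MMAB at 5.94, MMACHC and CCDC163 at 5.35, LMBRD1 at 5.23, ABCD4 at 5.21, MTRR at 5.08, MMUT at 5.06, MMADHC at 4.89 and MMAA at 4.69. The ranges of all neighbours in this order overlapped across libraries.

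Within a library the top of the order was steadier. MTR exceeded MMAB in 8 of 8 control libraries by 0.80 ± 0.15 log2 CPM (SD), and MMAB exceeded the MMACHC and CCDC163 window in 8 of 8 by 0.60 ± 0.24. LMBRD1 and ABCD4 differed by 0.015 ± 0.14 with LMBRD1 higher in 5 of 8, and MTRR and MMUT by 0.024 ± 0.22, so their order is not resolved. In dTAGV-1 the MMACHC and CCDC163 window, at 3.39, fell below all 8 comparators, whose lowest mean was 4.78 at MMAA. The percentiles of the comparators among promoter windows ranged from 87.6 to 99.9 in control and from 88.5 to 99.9 in dTAGV-1.

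None of the comparators was called. Of their 27 tested windows, edgeR's quasi-likelihood test called 0, and 0 had an unadjusted p below 0.05, with a lowest adjusted p that rounds to 1. DESeq2 also called 0. Beside the 0.215% called over the table, a count of 0 in 27 does not set these windows apart. Their log2 fold changes ranged from -0.20 to 0.35 with a median of 0.015, 11 of 27 were negative, and standard errors ran from 0.13 to 0.32. The 95% intervals reached from -0.60 to 0.76, and those of the 8 main windows from -0.36 to 0.39. Changes within a window's interval are not excluded. All 27 intervals lay above that of the MMACHC and CCDC163 promoter window, as did those of 184839 of the 185040 tested windows. That window was chosen for its loss, so the gap repeats the choice and does not set the comparators apart.

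**Figure D3:**
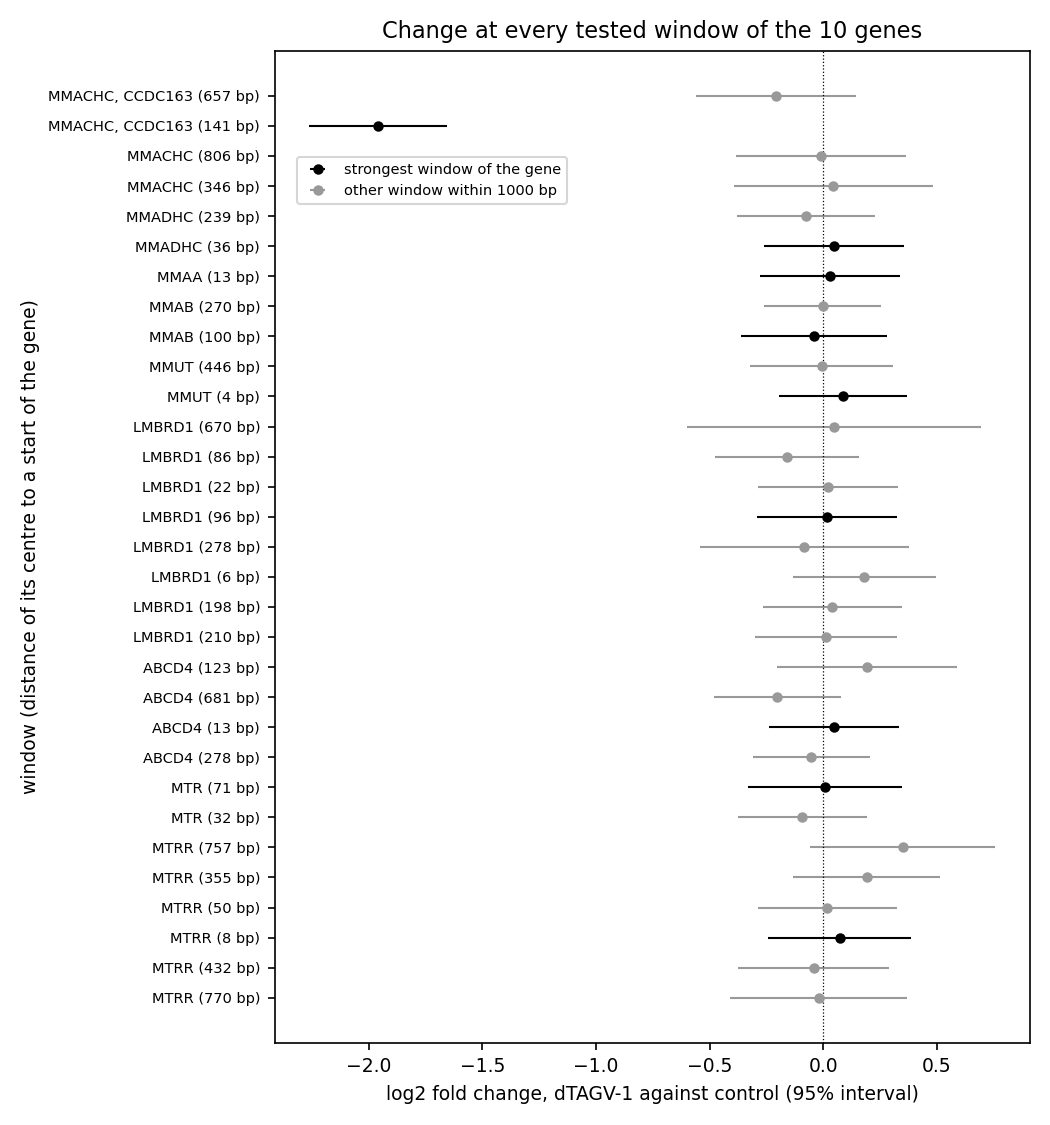
The log2 fold change with its 95% interval (horizontal axis) for each of the 31 tested windows of the 10 genes (rows, with the distance of the window centre to a start), main windows in black. The MMACHC/CCDC163 promoter window is at -1.96, and the comparator windows lie between -0.20 and 0.35.

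LMBRD1 and ABCD4 act at the lysosomal membrane, where LMBRD1 is the putative cobalamin exporter and ABCD4 an ABC transporter that works with it. The LMBRD1 main window, chr6:69796906-69797306 in an intron, ran from 4.33 to 5.44 log2 CPM in control with a median of 5.37 and from 4.58 to 5.64 in dTAGV-1 with a median of 5.32. A log2 fold change of 0.02 (SE 0.15, 95% interval -0.29 to 0.32) was found. The groups overlapped, with 3 dTAGV-1 libraries above the highest control library.

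LMBRD1 had 8 windows in all, because its annotated transcripts start in several places. Near chr6:69866422, where some LMBRD1 transcripts start beside COL19A1, a collagen gene, 3 windows gave 0.18 (SE 0.16), 0.04 (SE 0.15) and 0.01 (SE 0.16). Those windows lie at the COL19A1 promoter as much as at LMBRD1. The lowest LMBRD1 value was -0.16 (SE 0.16), at a window starting at 69796055. Neighbouring windows of LMBRD1 share 158 and 132 bases and so share counts.

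ABCD4 had its main window at chr14:74302810-74303210, in its untranslated region. It ran from 4.57 to 5.46 log2 CPM in control, median 5.32, and from 4.80 to 5.47 in dTAGV-1, median 5.30. The log2 fold change was 0.05 (SE 0.14, 95% interval -0.24 to 0.33), and the groups covered nearly the same range. The lowest comparator value of all, -0.20 (SE 0.14), was at an ABCD4 window centred 681 bp from a start, where 2 of 8 dTAGV-1 libraries were below the lowest control library. A transcript of VRTN, on the opposite strand, starts 59 bp from the centre of the main ABCD4 window.

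MMADHC, the adaptor that follows MMACHC, is the comparator nearest to it in the pathway. Its main window, chr2:149587614-149588014, ran from 4.21 to 5.22 log2 CPM in control, median 4.98, and from 4.25 to 5.24 in dTAGV-1, median 5.07. The groups overlapped over nearly their whole range, with a log2 fold change of 0.05 (SE 0.15, 95% interval -0.26 to 0.35). Like MMACHC, MMADHC shares its promoter with a gene on the opposite strand, the noncoding MMADHC-DT, whose start is 32 bp from the window centre.

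The mitochondrial genes were measured at windows on their starts. MMAB, the adenosyltransferase, had the highest level of the group, from 4.93 to 6.42 log2 CPM in control, median 6.04, and from 5.54 to 6.17 in dTAGV-1, median 6.06. Its log2 fold change of -0.04 (SE 0.16, 95% interval -0.36 to 0.28) was the only negative one among the comparator main windows, and its groups overlapped. The window, chr12:109573480-109573880, also covers the start of MVK, the mevalonate kinase gene, 290 bp away on the opposite strand.

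MMAA, whose product is a GTPase chaperone of the mutase, had its only window at chr4:145619198-145619598. It ran from 3.42 to 5.02 log2 CPM in control, median 4.87, and from 4.30 to 5.04 in dTAGV-1, median 4.87, with a log2 fold change of 0.03 (SE 0.15). The control spread of 0.52 (SD, n = 8), the widest of the main windows, came with control replicate 12, and without replicates 11 and 12 it was 0.10 (n = 6). The groups overlapped in both sets.

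MMUT encodes the mutase itself. Its main window, chr6:49463057-49463457, ran from 4.53 to 5.32 log2 CPM in control, median 5.10, and from 4.75 to 5.40 in dTAGV-1, median 5.25. The log2 fold change of 0.09 (SE 0.14, 95% interval -0.20 to 0.37) was the highest of the comparator main windows, with 1 dTAGV-1 library above the highest control library. The window also covers the start of CENPQ, a kinetochore gene, 117 bp away on the opposite strand.

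MTR and MTRR serve the cytosolic branch. The MTR window, chr1:236794989-236795389, had the highest level of the 10 genes, with 143 to 1339 counts in control and 294 to 1631 in dTAGV-1. In log2 CPM it ran from 5.75 to 7.04 in control, median 6.94, and from 6.26 to 7.09 in dTAGV-1, median 6.89. The groups overlapped, and the log2 fold change was 0.01 (SE 0.17, 95% interval -0.33 to 0.35). A second MTR window 32 bp from a start, in the untranslated region, gave -0.09 (SE 0.14).

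MTRR had its main window at chr5:7868912-7869312, which ran from 4.16 to 5.38 log2 CPM in control, median 5.21, and from 4.53 to 5.62 in dTAGV-1, median 5.26. Its log2 fold change was 0.07 (SE 0.16, 95% interval -0.24 to 0.39), and the groups overlapped. This window also covers the start of FASTKD3, a mitochondrial RNA-binding protein gene, 117 bp away. The highest value of any comparator, 0.35 (SE 0.20, 95% interval -0.06 to 0.76), was at a window of 8 to 49 counts per library near chr5:7850229, inside CFAP90, where an MTRR transcript also starts. It was not called.

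Without replicates 11 and 12 the comparator main windows gave much the same values with smaller errors. MTR gave -0.007 (SE 0.056), MMAB -0.089 (SE 0.066), MMUT 0.11 (SE 0.074) and MMADHC 0.071 (SE 0.077), and none of the 8 was called (edgeR, 6 libraries per group). Divergent starts were common to both kinds of promoter: besides MMACHC, the main windows of MMADHC, MMAB, MMUT, ABCD4 and MTRR also held an opposite-strand start. The layouts differed, with the MANE Select starts of ABCD4 and VRTN 45537 bp apart and those of MMACHC and CCDC163 227 bp apart. Any part of the layout in the change was not tested.

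Comparators could be set against windows of like level. Among the 5091 tested windows with a mean log2 CPM between the lowest and the highest comparator main window, 40 were called lower and the median log2 fold change was 0.009. The comparator main windows had a median of 0.038. At the edge of the rule, the farthest member inside 1000 bp, at 806 bp within MMACHC, had -0.01 (SE 0.19), and the nearest window outside, 1156 bp from an MTRR start, had 0.26 (SE 0.22).

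**Figure D4:**
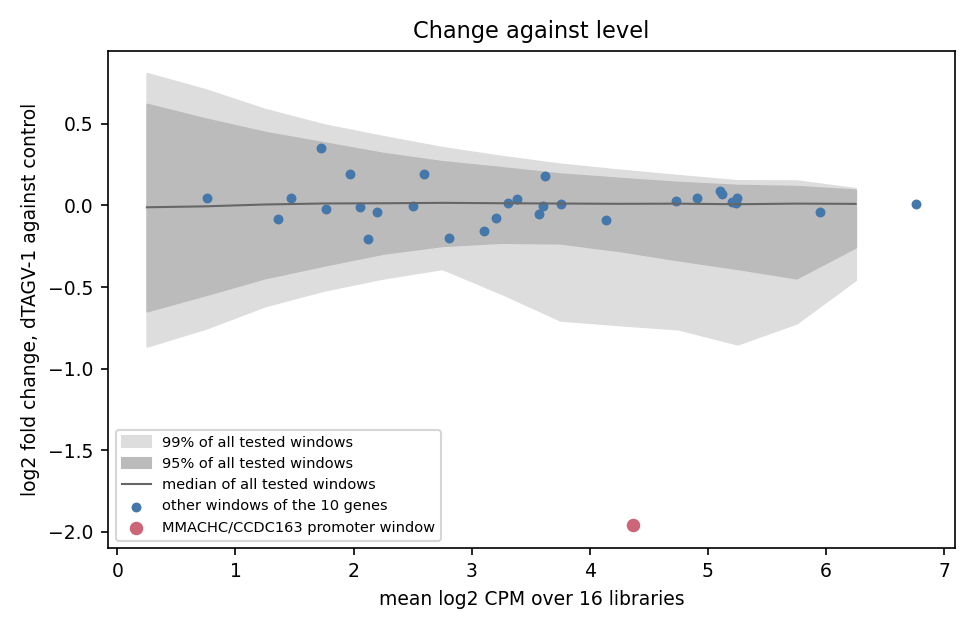
Log2 fold change (vertical axis) against mean log2 CPM over 16 libraries (horizontal axis) for the windows of the 10 genes. Grey bands hold 95% and 99% of all tested windows at each level. The MMACHC/CCDC163 promoter window, at -1.96, lies far below both bands, while most of the other windows lie within the inner one.

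The wider pathway was read from 29 further genes. Of these, 6 had no window (CBLIF, TCN1, CUBN, AMN, BHMT and GNMT), and ABCC1 and CBS had windows that did not pass the filter on low counts. The remaining 21 genes had 66 tested windows, of which edgeR called 0 in either direction, and 3 had an unadjusted p below 0.05. Of all 185040 tested windows, 397 were called and 5281 had an unadjusted p below 0.05, so a count of 0 in 66 is near the background and is not a result about these genes. The median log2 fold change of the 66 was -0.01, and 36 of 66 were negative.

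In cellular uptake, 9 windows of TCN2 (the blood carrier transcobalamin), CD320 (its receptor) and LRP2 (megalin) gave 0 calls, with CD320 at -0.02 (SE 0.13) and TCN2 at -0.07 (SE 0.16). In the methionine and folate cycles 35 windows gave 0 calls, and 21 were negative. MAT2A, which turns methionine into S-adenosylmethionine, had -0.22 (SE 0.14) at its main window, and MTHFD1, a folate-cycle enzyme, had -0.01 (SE 0.15). In propionate breakdown, which feeds MMUT, 22 windows gave 0 calls, 11 were negative, and the carboxylase genes PCCA and PCCB had 0.01 (SE 0.15) and -0.02 (SE 0.15).

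The 3 windows at an unadjusted p below 0.05 were not main windows. A window 246 bp from a start of AHCY, which hydrolyses S-adenosylhomocysteine, ran from 3.26 to 4.53 log2 CPM in control and from 3.46 to 4.13 in dTAGV-1, with a log2 fold change of -0.44 (SE 0.14, adjusted p = 0.842, edgeR). A window of SUCLG1, a succinyl-CoA ligase subunit, gave -0.41 (SE 0.14), and a window of FPGS, which adds glutamates to folate, gave 0.49 (SE 0.20), both with an adjusted p that rounds to 1. Their groups overlapped.

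The 3 regulators tied to cblC-like disease were read in the same way. The promoter windows of ZNF143 and HCFC1, a coactivator, had log2 fold changes of -0.05 (SE 0.16) and 0.03 (SE 0.16). THAP11, a zinc finger factor that works with HCFC1, was higher in most dTAGV-1 libraries but did not pass the test. Its window chr16:67841801-67842201 ran from 4.03 to 4.50 log2 CPM in control and from 4.34 to 4.77 in dTAGV-1, and 7 of 8 dTAGV-1 libraries were above the highest control library. The log2 fold change was 0.43 (SE 0.13, 95% interval 0.17 to 0.69), with an unadjusted p of 0.00175 and an adjusted p of 0.504 (edgeR).

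Comparator promoters were searched for the same 19-letter pattern, on both strands over the whole window, to show how far they resemble the MMACHC and CCDC163 site. The best match of each main window that came nearest is printed with capitals at the letters that fit the pattern (hg38, MMAB on the minus strand).
MMACHC and CCDC163, chr1:45500177-45500195: ACTACgcaTCCCAagATGC
MTR, chr1:236795151-236795169: ACTACAtcTCCCAgagaGC
MMAB, chr12:109573711-109573729: AgTACcttTaCCAatAgGC

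MTR came next to MMACHC, with 13 of 15 letters, and differed by A16G and T17A. Its match lies 2 bp from the MTR summit of replicates 1 to 8, so the best-fitting letters and the most open point nearly coincide there. MMAB matched 11 letters, ABCD4 and MTRR 10 each, MMADHC, MMUT and LMBRD1 9 each, and MMAA 8. A best match of 9 letters, 6 mismatches, was the commonest outcome among all promoter windows, at 51.9%. At most 1 mismatch was found in 1.02% of promoter windows, and at most 2 in 2.07%.

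MTR shows that a near match can occur where the window was not called. Among promoter windows with exactly 1 mismatch, 54 of 305 were called lower, or 17.7%, and among those with exactly 2, 86 of 402, or 21.4%. With 4 mismatches 15 of 2162 were called, or 0.694%, and with 5, 3 of 11410. Of promoter windows with mismatches only at positions 16 and 17, as in MTR, 3 of 26 were called, with log2 fold changes from -1.28 to 0.06 and a median of -0.30. Where the mismatch was a G at position 6 alone, as in MMACHC, 2 of 10 were called, MMACHC included, and the median was -0.33. Most promoter windows with a near match were thus not called, which does not mean that they were unchanged. The median log2 fold change was -0.28 with exactly 1 mismatch and -0.29 with exactly 2, against 0.013 with 5. Over all tested windows, promoter or not, at most 2 mismatches were found in 0.672%, and in 289 of the 395 lower windows, or 73.2%. These shares describe a pattern whose gaps were set after the MMACHC window was seen.

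**Figure D5:**
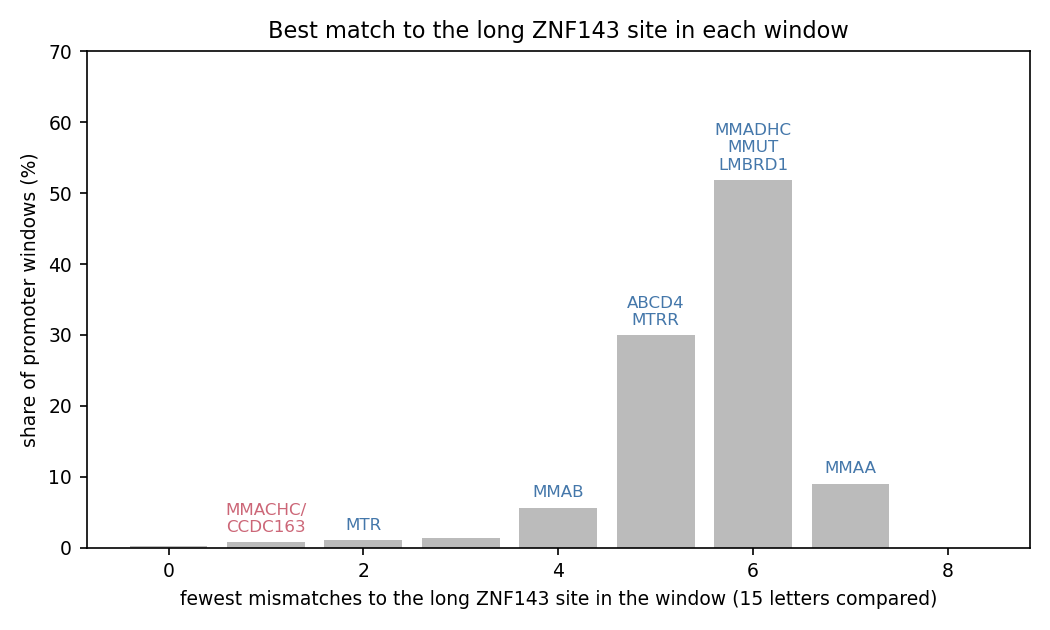
Share of all 38119 tested promoter windows in percent (vertical axis) by the fewest mismatches to the 15 fixed letters of the long ZNF143 site (horizontal axis). Gene names mark the main windows: MMACHC/CCDC163 at 1 mismatch, MTR at 2, MMAB at 4 and the others at 5 to 7, where most promoter windows lie.

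Short elements bound by other factors were searched in the same windows. CCAAT, bound by NFY, was in the MMACHC and CCDC163 window and in those of MMADHC, MMAB, MMUT, MTR and MTRR, and in 33.1% of promoter windows. GGGCGG, bound by SP and KLF factors, was in 60.9% of promoter windows and in the main windows of all 8 comparators, and these letters were not in the MMACHC and CCDC163 window. CCGGAAG, bound by ETS factors, was in the windows of MMUT, ABCD4 and MTR, and in 10.9% of promoter windows. GC content was 54.1% in the MMACHC and CCDC163 window, and from 56.9% at MMADHC to 70.3% at MMAA in the comparators. All 3 elements were searched on both strands over the 401 bp.

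Replicates 1 to 8 give a summit position for each promoter but no value by library. The MMACHC and CCDC163 summit was at chromosome 1 position 45500146, 40 bp from the middle of the site printed above and 13 bp from the window centre. The authors' -log10 score there was 948, at percentile 99.3 of 259926 summits. MTR had 2464 and MMAA, the lowest, 167. The list does not show which libraries of either group gave the score.

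The promoters whose log2 CPM followed that of MMACHC most closely over the 16 libraries were found among 27948 windows near protein-coding starts. Pearson's r was 0.97 for FYCO1, a lysosome transport adaptor, 0.95 for IFRD2, a ribosome-binding protein, 0.95 for NAA38, an N-terminal acetyltransferase subunit, and 0.95 for PEX26, a peroxisome import factor. These values are a description: the points are the same libraries, in 2 groups, and the likeness is largely the gap between the groups. With the group means removed, r was 0.43 to 0.71. The comparators had r from -0.005 to 0.21 with MMACHC, and from 0.39 to 0.79 with the group means removed.

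These 4 were lower in dTAGV-1 by less than MMACHC. FYCO1 ran from 4.33 to 4.86 log2 CPM in control and from 3.42 to 3.75 in dTAGV-1, a log2 fold change of -1.15 (SE 0.13). IFRD2 had -1.29 (SE 0.15), PEX26 -0.96 (SE 0.14) and NAA38 -0.94 (SE 0.13). The groups did not overlap at any of the 4. Over the table, all 8 dTAGV-1 libraries were below all 8 control libraries in 0.0713% of tested windows. Choosing windows by likeness to one that fell fixes their direction and favours such a gap between the groups, so no test is given. Their best matches are printed to compare with the MMACHC site, with capitals at letters that fit the pattern (hg38, IFRD2 and PEX26 on the minus strand).
FYCO1, chr3:45995836-45995854: ACTACAacTCCCggcgTGC
IFRD2, chr3:50292552-50292570: ACTACcatTCCCAtggTGC
PEX26, chr22:18077879-18077897: ACTACAaccCCCAgcAcGC
NAA38, chr17:7857255-7857273: ACcACAgcTCCCggcAgcC

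FYCO1, IFRD2 and PEX26 each matched 13 of 15 letters, as MTR does, and NAA38 matched 11. The sites lay from 20 to 44 bp from their window centres. MTR, with as many matching letters, had a log2 fold change of 0.01, and FYCO1, IFRD2 and PEX26 had -0.96 or lower. FYCO1, IFRD2 and PEX26 were chosen by likeness to a window that fell, while MTR was chosen by pathway. This contrast was therefore set by the choice, and nothing about the site is read from it.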

How the data were processed

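ATAC-seq counts were analysed for 8 control and 8 dTAGV-1 libraries (replicates 9 to 16). The authors deposited whole-number counts per 401 bp window, not normalized, per the file headers and values, beside 1 -log10 q per window. A deposited summit list gives a -log10 score per summit for replicates 1 to 8. The -log10 values were used only as description. Per the submitters' processing notes, cutadapt 1.8.1, Bowtie2 2.4.4, SAMtools 1.9 and hg38 were used. The peak caller, the counting of cuts or fragments and any Tn5 shift are not given in the sources used here. Coordinates count from 1, and all 212358 windows lay within hg38 ends. The control of replicates 1 to 8 is titled DMSO, while another label gives no treatment.

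Counts were tested with edgeR 4.0.16 (R 4.3.3): filterByExpr by group, TMM scaling, the quasi-likelihood test without covariates and Benjamini-Hochberg adjustment over 185040 windows, 87.1% of the table, at 0.05. Standard errors were derived from the fitted F statistic. With 8 libraries of 2275856 to 13671039 counts per group, intervals cover library spread and counting error. The fit was tested on simulated data. DESeq2 1.42.0, no TMM, no filter, the replicate number as a block, left-out libraries, a distance of 500 bp and the window nearest a start were alternatives.

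The members, lists and comparisons were chosen with earlier results of these data known. The named genes were the 10 members, genes sharing their promoters, 6 neighbours, 3 regulators, examples from 29 other pathway genes and the 5 promoter windows most correlated with MMACHC (protein-coding start within 500 bp, over 10 kb away, at or above the median abundance), of which 1 is not reported here. Neighbouring members that overlap share counts. Annotations were from GENCODE release 44 and sequences from the hg38 genome (Python 3.11.15, pysam 0.24.0). The long ZNF143 pattern was written after shorter forms had been looked for in the MMACHC window and that sequence had been seen.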

Additional observations from a re-analysis of the deposited data

Results flagged for a closer look

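Library levels at the main window of each gene were screened for a sample far from the others of its group (Dixon's test at 95%, critical value 0.526 for 8 libraries). Of 18 groups, 9 had such a sample. Chance gives about 1 in 20, but the genes share libraries, and 8 of the 9 are control replicate 12. That library had 4.64 log2 CPM at MMACHC and CCDC163 against 5.31 to 5.51 in the others, 3.42 at MMAA against 4.73 to 5.02, 4.93 at MMAB against 5.76 to 6.42 and 4.53 at MMUT against 4.96 to 5.32. It had 4.33 at LMBRD1 against 5.21 to 5.44, 4.57 at ABCD4 against 5.07 to 5.46, 5.75 at MTR against 6.57 to 7.04 and 4.16 at MTRR against 4.85 to 5.38. At MMADHC it was also the lowest control library, at 4.21. The remaining sample was dTAGV-1 replicate 12 at MMACHC and CCDC163, with 2.52 against 3.25 to 3.68. These are the 2 shallowest libraries, with 31.0% and 37.8% of counts in the top decile of windows, and the part of that in these levels was not tested.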

How the results depend on the processing

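The number of windows called over the table moved with the libraries and the model, from 397 to 753 with a replicate block, 781 without replicates 11 and 12 of both groups and 945 with the replicate block and without those replicates, a setting added after the data were seen. Leaving out 1 library gave 321 to 632, the highest without control replicate 12. DESeq2 called 508, totals without TMM 498 and no filter 363. Of the member windows, 1 was called under all 23 alternatives, the MMACHC and CCDC163 promoter, and no comparator window was. The alternatives refit the libraries in which that promoter was chosen for its loss, so its calls repeat the choice. The lack of comparator calls is near the background, as 0.215% of tested windows were called in the main fit. The log2 fold change of the MMACHC and CCDC163 promoter window ran from -2.03 to -1.89, and was -1.97 with the replicate block. The comparator main windows gave 184 values over the alternatives, from -0.14 to 0.18, with a lowest adjusted p of 0.944. Their signs changed under some alternatives, so no direction is read from them. The cause of these shifts was not tested. Same-numbered libraries had correlations of deviations from 0.03 to 0.34, with 5 of 8 above 0.1, and 5 of 8 control libraries correlated best with their own number, a hint from the data and not from the design. For the 31 member windows the block changed no call; at the locus, the other pathway genes and the regulators it was not tabulated. Depth limits the weakest windows: that of LMBRD1 with 196 counts in all had an SE of 0.32.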
